A study of Homo sapiens with 36 samples.

Results

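MYC and its neighbour PVT1 were described through every chromatin immunoprecipitation (ChIP-seq) peak that had its summit on chromosome 8 between 126.5 and 129.5 Mb (hg38). This window of 3 Mb held 862 of the 476964 peaks in 16 peak lists. MYC (ENSG00000136997.22) is a protein-coding gene at chr8:127735434-127742951 on the plus strand. PVT1 (ENSG00000249859.14), a long noncoding RNA gene, starts 59.1 kb further along the same strand, at chr8:127794526-128187101, and covers 13.1% of the window. The window was set by position and not by measured values. The study compared A549, a human lung adenocarcinoma cell line, with BEAS-2B (B2B), a non-cancerous line of human bronchial epithelial cells, to ask how regulatory elements and the transcription factor AP-1 differ between cancer and non-cancer lung cells. The labels name no treatment or genetic change for either line. RNA polymerase II (pol II), H3K4me3, H3K27ac, Med1, JunB, Jun and JunD were profiled in both lines, and CTCF and Rad21 were analysed in B2B only. Each list came from 2 replicates that the authors merged before peak calling, so no value below has a replicate error and no difference between the lines could be tested against replicates. Intervals cover counting error only and take peaks as independent, so they are too narrow where peaks cluster and serve as description. Counts are set beside the same counts over chromosomes 1 to 12, which every list covers.

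MYC encodes a transcription factor that binds DNA together with MAX and drives genes of growth and metabolism, and its expression in epithelial cells depends on enhancers spread over a gene-poor region on both sides of it. PVT1 is known as a host of such enhancers in its introns, and its own promoter can take part in contacts with the same elements. H3K4me3 marks promoters, H3K27ac marks active promoters and enhancers, Med1 is a subunit of the Mediator complex that links enhancers with pol II, and AP-1 is a dimer that holds JunB, Jun or JunD, the proteins of its Jun family, and binds the motif TGAGTCA in open chromatin. CTCF and the cohesin subunit Rad21 hold the bases of chromatin loops, mostly between CTCF motifs that face each other.

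H3K4me3 was read at the promoters of 9 lung epithelial genes. A549 had a peak at 7 of them and B2B at 5. The share over all genes is not given for this mark, so these counts do not test the labels of the lines. Both lines had peaks at NKX2-1, KRT8, KRT18, EPCAM and CDH1, and A549 alone at SFTPC and TP63. Neither line had a peak at the surfactant gene SFTPB or the basal cell gene KRT5.

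The window was rich in peaks of A549. Its A549 lists held 109 peaks of H3K27ac, 54 of Med1, 92 of pol II, 36 of H3K4me3, 77 of JunB, 73 of Jun and 25 of JunD. Its B2B lists held 62 peaks of H3K27ac, 32 of Med1, 41 of pol II, 12 of H3K4me3, 19 of JunB, 87 of Jun and 16 of JunD, with 92 of CTCF and 35 of Rad21. Per Mb, the 36.3 H3K27ac peaks of A549 were 2.68 times the density over chromosomes 1 to 12, and the 20.7 of B2B were 1.74 times theirs. H3K4me3 of B2B, at 0.482 times, and Rad21, at 0.943 times, were the lists with fewer peaks per Mb here than over chromosomes 1 to 12. Peaks of high rank were spread differently: 12 of the 62 H3K27ac peaks of B2B (19.4%) and 3 of the 109 of A549 (2.75%) were in the top 10% of their list by fold enrichment. Fold enrichment is relative to a local background, which was unequal for H3K27ac. Its median at B2B peaks was 3.19 times the lowest of the list here and 7.66 times over chromosomes 1 to 12. At A549 peaks it was 2.18 and 1.83 times. These ranks therefore do not show which line had the stronger peaks.

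**Figure D1:**
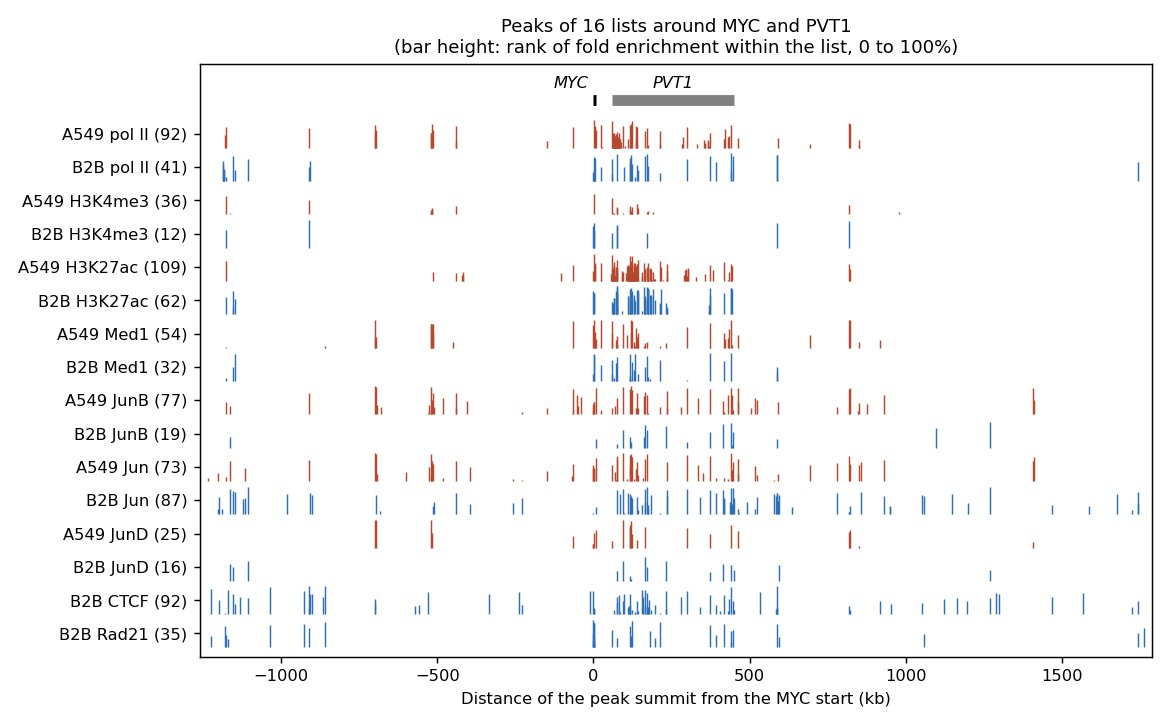
Peaks of the 16 lists against the distance of their summit from the MYC start in kb; red marks A549 and blue B2B, the height of a bar is the rank of its fold enrichment within its list (0 to 100%), and the number of peaks in each list is in parentheses. H3K27ac of both lines is concentrated over PVT1, whereas Jun-family peaks of A549 also stand upstream of MYC, with the highest at 699.6 kb.

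Relative to B2B, the window held 1.76 times as many H3K27ac peaks in A549 (95% interval of the counts 1.28 to 2.44), against 1.14 times over chromosomes 1 to 12. For Med1 the ratio was 1.69 (1.07 to 2.70) against 0.970, so that for both enhancer marks the ratio over chromosomes 1 to 12 lay below the interval of the window. The intervals take peaks as independent, yet 34 of the 109 H3K27ac peaks of A549 lay in 1 stretch of 50.9 kb. They are thus too narrow, and a background outside them is no test. For H3K4me3 the ratio was 3 (1.53 to 6.33) against 1.25. The Jun-family ratios had their background within the interval, with 4.05 (2.43 to 7.09) against 3.15 for JunB, 0.839 (0.606 to 1.16) against 0.756 for Jun and 1.56 (0.802 to 3.13) against 1.04 for JunD. With the longer list of each target shortened to the length of the other, the ratios of H3K27ac and Med1 were 1.60 and 1.74, that of JunB fell to 1.42 and that of H3K4me3 to 1.5. Under the same setting pol II turned from 2.24 to 0.878 and Jun from 0.839 to 1.07, so no direction is given for either.

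**Figure D2:**
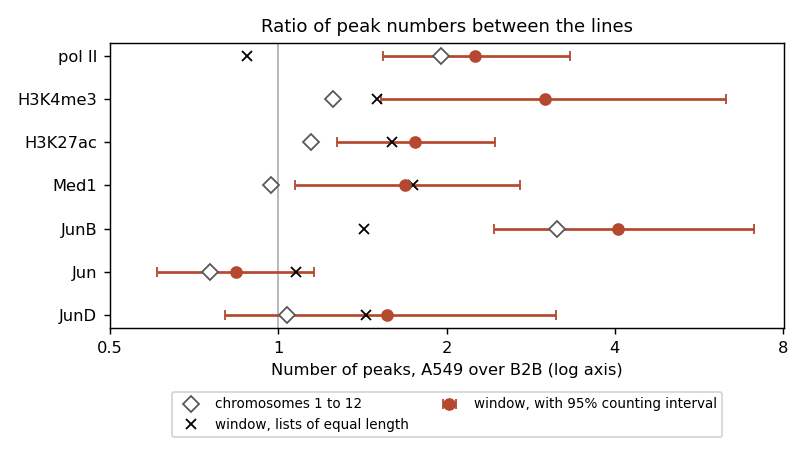
Number of peaks in A549 over that in B2B for 7 targets, on a log axis; filled circles give the window with the 95% interval of the counts, open diamonds give chromosomes 1 to 12, and crosses give the window with lists of equal length. The diamonds of H3K4me3, H3K27ac and Med1 lie below the interval of the window.

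The local background of the peak caller was also higher here in A549. Solved from fold enrichment and p-value, the lowest background in the window was 1.07 to 1.42 times the lowest of the list for 6 of the 7 A549 lists, and only JunB reached the lowest value. Of the 9 B2B lists, 7 reached it, and H3K4me3 and Med1 stood at 1.18 and 1.33 times. With peaks of a −log10 q of at least 5 and the reads of the window divided by that factor, the A549 to B2B ratio was 1.63 for H3K27ac, 1.86 for Med1 and 1.8 for H3K4me3. The part of read depth over the region in the single sites described below was not tested.

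Peaks of a target that overlapped between the lines were merged into sites. Of 118 H3K27ac sites, 63 were called in A549 only (53.4%, against 41% over chromosomes 1 to 12), 45 in both lines (38.1% against 35.5%) and 10 in B2B only. Of 60 Med1 sites, 33 were called in A549 only (55% against 31.4%) and 19 in both lines (31.7% against 34.8%). The H3K4me3 sites were called in A549 only at 29 of 38 (76.3% against 50.2%) and in both lines at 7 (18.4% against 39.6%). Thus the share seen only in A549 was above its background for these 3 marks. With lists of equal length it was 50% for H3K27ac and 55.9% for Med1, but fell to 57.1% for H3K4me3. The background was not recomputed under that setting. Pol II had 70 of 104 sites in A549 only (67.3% against 62.7%) and 19 in both lines (18.3% against 23.5%).

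The Jun-family proteins divided closer to their background. JunB had 62 of 81 sites in A549 only (76.5% against 72.2%) and 15 in both lines (18.5% against 17%). Jun had 32 of 118 sites in A549 only (27.1% against 28%) and 40 in both lines (33.9% against 26.2%). JunD had 19 of 35 sites in A549 only (54.3% against 43.5%) and 6 in both lines (17.1% against 14.9%). With lists of equal length, the share called in A549 only fell to 45.7% for JunB and 34.6% for pol II, and the share in both lines rose to 31.4% and 32.7%.

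PVT1 held most of the acetylated sites. Of the H3K27ac peaks in the window, 90 of 109 in A549 (82.6%) and 53 of 62 in B2B (85.5%) had their summit between the ends of PVT1. Med1 was less concentrated in A549, with 29 of 54 peaks in PVT1 (53.7%) against 23 of 32 in B2B (71.9%). JunB differed more, with 28 of 77 A549 peaks (36.4%) against 14 of 19 B2B peaks (73.7%). The A549 JunB peaks outside PVT1 included 27 upstream of MYC, where B2B had 1. Jun had 25 peaks upstream of MYC in A549 and 21 in B2B, and 15 and 31 peaks beyond the end of PVT1.

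At the MYC promoter, pol II, H3K4me3, H3K27ac, Med1 and Jun were called in both lines, and JunB and JunD were called in A549 alone. Peaks within 1 kb of the 5′ start of MYC were read first. The pol II peak of A549 spanned 7170 bp, almost the length of the gene, with a fold enrichment of 107.7 and a rank of 99.6%, where the rank is the share of peaks in the same list that it equalled or exceeded. The highest pol II peak of B2B there spanned 1653 bp with a fold of 8.73 and a rank of 85.0%. H3K27ac had a fold of 97.6 and a rank of 95.7% in A549, and of 8.56 and 82.7% in B2B.

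Those folds could not be set against each other, since the caller had divided by unequal backgrounds. For pol II at this promoter that background stood at 17.0 times the lowest value in the B2B list, and at 1.16 times the lowest value in the A549 list. The reads at the summit were therefore divided by the lowest background of each list, and the peak with the most reads was taken, a measure chosen after the data were examined. On that scale pol II stood at 190.0 in A549 and 153 in B2B, with summits 0.794 and 0.860 kb past the start. H3K27ac stood at 246 in A549 and at 132 in B2B, with summits 0.977 and 0.979 kb past the start, and the B2B peak of higher fold just before the start stood at 76.3. Med1 stood at 71.2 and 39.7, and H3K4me3 at 83.6 and 57.3. Each of the 4 was higher in A549, without replicates to set a spread. These values were not divided by the factor of the window given above.

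The Jun-family peaks at the 5′ start of MYC ranked at 45.8% or lower in their lists. The JunB peak of A549 had a fold of 6.47 and a rank of 45.0%, and the JunD peak nearest the 5′ start a fold of 3.89 and a rank of 13.1%. Jun had a fold of 8.67 and a rank of 45.8% in A549, and of 4.59 and 6.03% in B2B, although the reads over the lowest background were 24.1 in both. On that scale the A549 JunB peaks at the 5′ start reached 11.7 and the JunD peak 8.65. The background under the B2B Jun peak was 4.57 times the lowest of its list. The lowest Jun background of the window was 1.33 times that of the list in A549 and 1 times in B2B. The reads were not divided by this factor, so an equal size in the lines is not shown. Whether a JunB or JunD peak of the A549 height would be called in B2B was not tested. Over all 14 annotated starts of MYC, A549 had 4 JunB, 3 Jun and 2 JunD peaks, and B2B had 1 Jun peak.

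**Figure D3:**
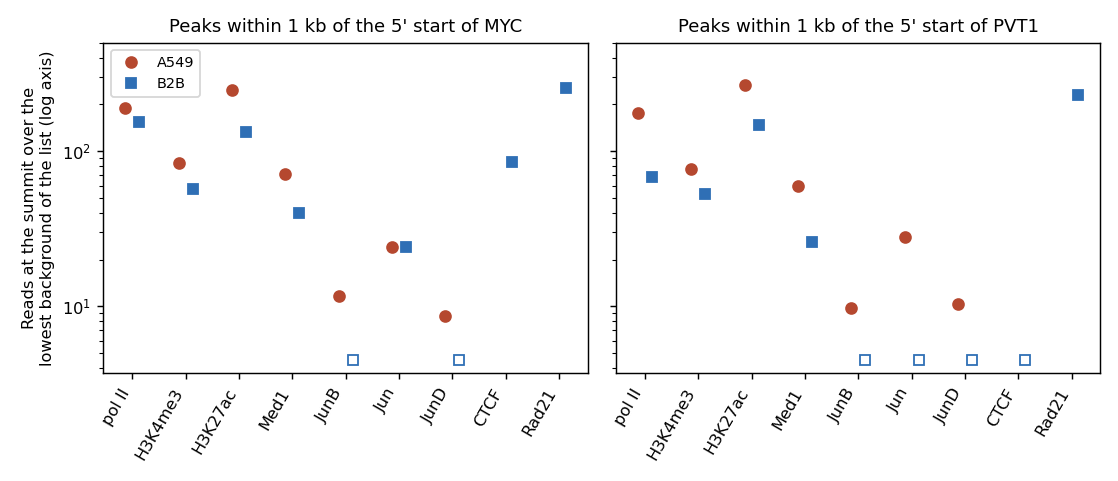
Reads at the summit, divided by the lowest background of the list, of the peak with the most reads among those that reach within 1 kb of the 5′ start of MYC (left) and PVT1 (right), on a log axis; red circles are A549, blue squares are B2B, and open squares at the foot stand for lists without a peak. H3K27ac at MYC stands at 246 in A549 and 132 in B2B, and JunB and JunD have a called peak in A549 only at both starts.

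At the 5′ start of PVT1, pol II, H3K4me3, H3K27ac and Med1 were called in both lines and the 3 Jun-family proteins in A549 only. In A549 it had pol II with a fold of 72.4 and a rank of 95.1%, H3K27ac with 89.5 and 93.8%, and Med1 with 21.5 and 96.0%. B2B had a pol II peak on the start with a fold of 3.61 and a rank of 26.8%, over a background 18.5 times the lowest of its list, and a further one of fold 7.15 with its summit 1.20 kb into the gene. Med1 of B2B had a fold of 9.04 and a rank of 75.3%. As reads over the lowest background, pol II stood at 176 in A549 and 68.1 in B2B, H3K27ac at 267 and 147, and Med1 at 59.9 and 25.9. JunB, Jun and JunD each had a peak at this start in A549, with ranks of 22.0%, 58.1% and 22.8%, and none was called in B2B. As reads over the lowest background, these A549 peaks stood at 9.76, 28.1 and 10.4. The background of H3K27ac in B2B was 28.7 times the lowest of its list here. Whether Jun-family peaks of the A549 height would be called in B2B was not tested, so the missing calls do not show absence. Rad21 had a peak of fold 8.43 there, and CTCF had none.

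PVT1 has 132 annotated starts, most of them inside the gene, and the strongest promoter peaks of its Jun-family proteins lay at internal starts. The region chr8:127851044-127856033, 118 kb downstream of the MYC start inside PVT1, was called by all 7 lists of A549. Its highest JunB peak had a fold of 36.6 and a rank of 99.3%, its highest Jun peak 38.6 and 95.3%, and its highest JunD peak 12.4 and 95.5%, all 118.9 kb from the MYC start. B2B had peaks of the 3 proteins at the same place, JunB with a fold of 5.05 and a rank of 21.6%, Jun with 11.9 and 66.0%, and JunD with 2.70 and 5.44%. As reads over the lowest background of the list, the JunB peak stood at 80.5 in A549 and 52.5 in B2B, the Jun peak at 118 and 113, and the JunD peak at 32.3 and 25.1. Thus the lines lay closer in reads than in fold or rank. In A549 the lowest background of the window was 1.33 times that of the list for Jun and 1.39 times for JunD. In B2B it was 1 and 1.00 times. The reads were not divided by these factors, so no direction is given for Jun or JunD. Med1 ranked high in both lines, at 98.8% in A549 and 95.9% in B2B. The next region, chr8:127859335-127861024, had H3K27ac of fold 78.2 and rank 90.3% in A549, with Med1 at a rank of 95.8%, and Rad21 of fold 18.9 in B2B, where JunB and JunD were not called.

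Peaks of H3K27ac, Med1, JunB, Jun and JunD from both lines merged into 209 regulatory sites. Of these, 30 lay within 1 kb of an annotated transcription start and 179 were distal, with 148 in introns, 9 over exons and 22 between genes. Distal sites were called in A549 only at 78 (43.6%, against 34.3% over chromosomes 1 to 12), in both lines at 56 and in B2B only at 45. Most were thinly marked, with 100 of them in just 1 of the 10 lists.

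More distal sites with many marks were called in A549 than in B2B. At least 4 of the 5 lists called 22 distal sites in A549 (12.3% of the 179, against 3.44%) and 6 in B2B (3.35% against 2.46%), and 5 of the 6 were among the 22. All 22 held JunB of A549, a list of 19926 peaks over chromosomes 1 to 12 against 6318 in B2B. These site counts were not repeated with lists of equal length. Of the 22 sites in A549, 13 lay in PVT1, 4 upstream of MYC, 1 between the genes and 4 beyond PVT1. At least 1 of the 5 lists of B2B called 16 of the 22 (72.7% against 79.7%). All 3 Jun-family proteins met at 16 distal sites in A549 (8.94% against 4.7%) and at 9 in B2B (5.03% against 4.83%), of which 4 were the same sites. Distal Med1 sites without H3K27ac of the same line were less frequent here than elsewhere, at 15 of 35 in A549 (42.9% against 70.8%) and 4 of 17 in B2B (23.5% against 62.3%).

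**Figure D4:**
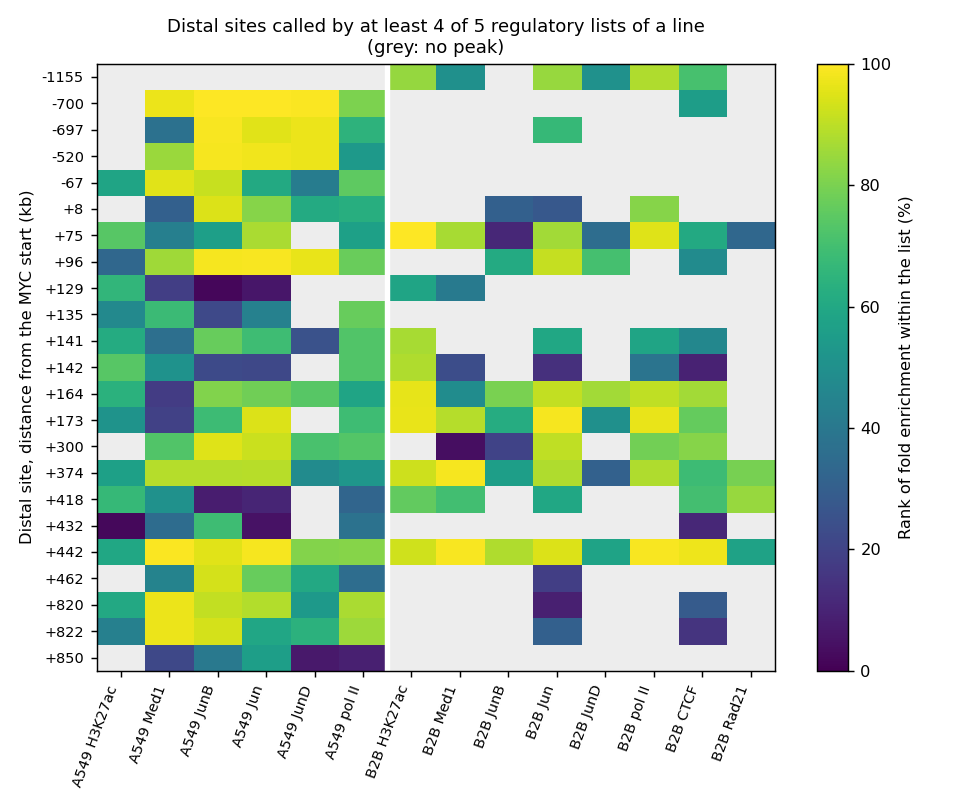
The 23 distal sites called by at least 4 of the 5 regulatory lists of a line, in order along the chromosome and labelled by distance from the MYC start in kb; colour gives the rank of the fold enrichment within its list (%), and grey marks no peak. The 3 sites furthest upstream in A549 have Med1 and the 3 Jun-family proteins but no H3K27ac, and the sites at 74.6, 164, 173, 374 and 442 kb carry at least 4 of the 5 targets in both lines.

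The strongest Jun-family peaks of A549 in the window lay far upstream of MYC and were not called in B2B, which does not show absence. The region chr8:127035355-127036324, in an intron of the long noncoding RNA gene PCAT1 and 699.6 kb upstream of MYC, held the top peak of all 3 lists. JunB had a fold of 44.1 and a rank of 99.8%, Jun 71.0 and 99.7%, and JunD 19.4 and 99.5%, each with TGAGTCA or its reverse complement within 50 bp of the summit. Med1 had a fold of 23.5 and a rank of 96.9%, and pol II 28.8 and 80.1%. H3K27ac had no peak there, and the nearest one of A549 lay 185.3 kb away. In B2B none of the 5 regulatory lists had a peak at this region, whereas CTCF had a peak of fold 9.95.

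A pair of further sites upstream of MYC had the same makeup in A549. The site chr8:127038436-127039074, also in a PCAT1 intron, had JunB of fold 33.1, Jun of fold 39.0 and JunD of fold 13.7, with Med1 of fold 6.05, and in B2B a Jun peak at a rank of 67.0%. The site chr8:127215000-127215679, in introns of PCAT1 and CASC19, had JunB of fold 32.3, Jun of fold 48.4 and JunD of fold 13.8, with Med1 of fold 12.6 and no regulatory peak in B2B. The nearest H3K27ac peak of A549 lay 182.6 and 5.95 kb away. At both sites the 3 Jun-family summits of A549 had the AP-1 motif within 50 bp.

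At distal sites the fold and rank given are those of the peak of highest fold of each list, and they carry the local background of each line. By the number of lists and then the mean rank, 6 distal sites led in A549, and all 6 were called by all 5 lists. At chr8:128176019-128177909, in an intron of PVT1 441.5 kb from MYC, Med1 had a fold of 37.6 and a rank of 99.3%, Jun 53.1 and 98.5%, JunB 22.0 and 95.5%, JunD 7.82 and 81.5%, and H3K27ac 16.2 and 59.5%. The site chr8:127831287-127832267, in a PVT1 intron 96.3 kb from MYC, had Jun of fold 56.4, JunB of 30.2, JunD of 13.3, Med1 of 12.9 and H3K27ac of 7.12. In B2B that site kept the 3 Jun-family peaks, with folds of 26.1, 7.30 and 6.54 for Jun, JunB and JunD, but had no H3K27ac or Med1 peak. Thus Jun-family binding was called there in both lines and the enhancer marks in A549 only.

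A neighbouring pair of leading sites, chr8:128554602-128555638 and chr8:128556580-128557379, lay in an intron of LINC00824, 819.7 and 821.5 kb from MYC. Med1 had folds of 24.3 and 23.3 and ranks of 97.2% and 96.9% in A549, JunB 16.8 and 19.4, and H3K27ac 16.9 and 8.98. In B2B, Jun was the only regulatory target called at either, with folds of 4.85 and 6.47, and neither Med1 nor H3K27ac had a peak. H3K4me3 of B2B was called at the first of them with a fold of 11.2. Another leading site, chr8:127667743-127669434, lay 66.8 kb upstream of MYC within the long noncoding RNA gene ENSG00000286010, in an intron at the midpoint of the site and over an exon at its H3K27ac peak. It had Med1 of fold 20.4, JunB of 17.5, H3K27ac of 15.4, Jun of 11.4 and JunD of 5.19, with no peak of any list in B2B.

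In B2B the leading 6 distal sites were shared with A549 except for 1. At chr8:128176019-128177909, which led in both lines, B2B had Med1 of fold 27.6 and rank 99.0%, pol II of 25.5 and 98.8%, Jun of 31.4 and 94.5%, and CTCF of 47.2 and 97.5%. At chr8:128108814-128109731, the other leading site of both lines, Med1 had a fold of 24.3 in B2B and 14.3 in A549, with ranks of 98.6% and 88.9%. H3K27ac there ranked 92.3% in B2B and 56.8% in A549. The site chr8:127809175-127810814 had an H3K27ac peak of fold 39.5 in B2B, the highest of H3K27ac in the window for that line, at a rank of 100%, and of fold 38.1 in A549, at a rank of 74.1%.

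The other leading sites of B2B were in PVT1 introns at chr8:127898469-127899931 and chr8:127906917-127909161. In B2B they had Jun of fold 25.5 and 45.9, H3K27ac at ranks of 96.4% and 96.8%, and JunD at ranks of 86.3% and 50.3%. In A549 the first of them had all 5 targets and the second lacked JunD. The exception was chr8:126579803-126580916, in a PCAT1 intron 1155 kb upstream of MYC, with Jun of fold 19.7, H3K27ac of 8.78, Med1 of 6.33 and JunD of 5.51. No list of A549 had a peak there, and the nearest H3K27ac peak of that line lay 21.1 kb away.

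The strongest Jun-family peaks of B2B differed from those of A549. JunB was highest at chr8:129005142-129005442, in an intron of the noncoding gene CCDC26 and 1270 kb from MYC, with a fold of 12.6 and a rank of 92.2%. Jun was highest at chr8:127907794-127908343 in PVT1, with a fold of 45.9 and a rank of 98.5%, and its next peak, of fold 43.0, lay on the JunB peak in CCDC26. JunD was highest at chr8:127899424-127899664 in PVT1, with a fold of 8.10 and a rank of 86.3%. In the top 10% of their lists by fold enrichment were 14 of 77 JunB peaks and 5 of 25 JunD peaks of A549, and 1 of 19 and 0 of 16 in B2B. For Jun the lines were closer, with 9 of 73 peaks in A549 (12.3%) and 8 of 87 in B2B (9.20%). Over a whole list the share is 10% by definition, and the B2B counts of JunB and JunD are small. These ranks also carry the local background of each line.

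Active enhancers were taken as distal H3K27ac peaks that overlapped Med1 of the same line and no promoter peak of H3K4me3 with pol II. A549 had 15 and B2B 16, although A549 had more H3K27ac and more Med1 peaks in the window. Over chromosomes 1 to 12 the same rule gave 1236 in A549 and 2457 in B2B, so the window held relatively more of those of A549. PVT1 held 12 and 14 of them. Of the A549 enhancers, 9 of 15 overlapped H3K27ac of B2B, and of the B2B enhancers 14 of 16 overlapped H3K27ac of A549. The shares of these overlaps over chromosomes 1 to 12 are not given, so nothing is read from them. The A549 enhancers carried JunB at 9 of 15 (60%, 35.7 to 80.2%, against 62.1%), Jun at 8 (53.3% against 60.1%) and JunD at 4 (26.7% against 24.8%). The B2B enhancers carried JunB at 5 of 16 (31.3%, 14.2 to 55.6%, against 23.2%), Jun at 11 (68.8% against 58.7%) and JunD at 3 (18.8% against 9.48%). For each of these 6 shares the background lay within the interval.

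Distal H3K27ac peaks within 10 kb of each other were joined into clusters, 20 in A549 and 11 in B2B. The largest of A549, chr8:127827041-127877956, joined 26 peaks that covered 11957 bp and was number 22 of 7362 clusters on chromosomes 1 to 12 by covered length. It began 91.6 kb downstream of the MYC start, and also held 11 Med1, 8 JunB, 10 Jun and 6 JunD peaks of A549. Within it B2B had 15 H3K27ac and 8 Med1 peaks. The largest of B2B, chr8:127898469-127932275, covered 6.90 kb with 12 peaks and was number 57 of 5012. It lay on the next cluster of A549, chr8:127896926-127932245, which covered 6.19 kb with 15 peaks.

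The third cluster of A549, chr8:127797095-127812346, covered 5.19 kb just inside the 5′ end of PVT1 and overlapped the second of B2B, chr8:127798352-127812396, with 3.74 kb. The third of B2B, chr8:127863747-127877326, covered 2.99 kb inside the largest cluster of A549. So the 3 largest clusters of each line fell in the same stretches of PVT1, in a different order. With starts excluded to 3 kb, the largest clusters covered 6557 bp in A549 and 3318 bp in B2B.

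The AP-1 motif, TGAGTCA or its reverse complement TGACTCA, was searched within 50 bp of each Jun-family summit. It stood at 41 of 77 JunB peaks of A549 (53.2%, 42.2 to 64.0%, against 46.1% over chromosomes 1 to 12), 32 of 73 Jun peaks (43.8% against 42.3%) and 15 of 25 JunD peaks (60%, 40.7 to 76.6%, against 35.4%). In B2B it stood at 12 of 19 JunB peaks (63.2% against 52.8%), 32 of 87 Jun peaks (36.8% against 39.5%) and 11 of 16 JunD peaks (68.8%, 44.4 to 85.8%, against 44.7%). The JunD share of A549 was the only one with its background outside the interval. In windows of the same length 2 kb to each side, the motif stood at 1 of 154 for JunB and 2 of 146 for Jun in A549. No Jun-family summit of either line at chr8:127906917-127909161, the strongest Jun site of B2B in PVT1, had it within 50 bp.

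CTCF peaks carried Rad21 less often in the window than elsewhere, whereas the share of Rad21 peaks with CTCF had its background within the interval. Of 92 CTCF peaks of B2B, 23 overlapped Rad21 (25%, 17.3 to 34.7%, against 35.8%), and of 35 Rad21 peaks, 23 overlapped CTCF (65.7%, 49.2 to 79.2%, against 59.1%). A match to the CTCF motif, on a matrix learned from summits on other chromosomes and at a limit that 5% of flanking windows pass, stood at 10 of the 23 CTCF peaks with Rad21 (43.5% against 75.2%) and at 21 of the 69 without it (30.4% against 46.7%). The 23 peaks divided by place and by H3K27ac, a division made after the data were examined. Inside PVT1, 0 of 11 CTCF peaks with Rad21 had a match, and outside it 10 of 12 did. No share over other chromosomes is given for this division. Of the 11 inside PVT1, 9 overlapped H3K27ac of B2B, so place and H3K27ac cannot be told apart. Among the 23, 13 overlapped H3K27ac of B2B and 2 of these had a match (50.6% over the other chromosomes), against 8 of the 10 without H3K27ac (83%).

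The 8 highest CTCF peaks with Rad21 were spread over the window, 6 of them upstream of MYC. The highest, chr8:128322645-128323182, 587.4 kb downstream of MYC at the start of the noncoding gene ENSG00000286034, had a fold of 72.5 and a rank of 99.8%, with a motif on the minus strand. Upstream, chr8:126876609-126876980 in a PCAT1 intron, 858.6 kb away, had a fold of 67.8 and a motif on the plus strand, and chr8:126824433-126824731, 910.8 kb away, a fold of 57.7 and a motif on the plus strand. So the strongest peak downstream and the strongest pair upstream carried motifs that point toward MYC. Beyond them, chr8:126699017-126699268 and chr8:126566963-126567241 had folds of 40.6 and 24.3 and motifs on the minus strand, and chr8:126510351-126510626 a fold of 29.8 and a motif on the plus strand.

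Next to MYC, the CTCF peak chr8:127733947-127734303 lay 1.31 kb upstream of the start, within an intron of CASC11, with a fold of 22.7, a rank of 83.0% and a motif on the plus strand, which points into MYC. Its Rad21 peak, of fold 25.2 and rank 97.4%, was the highest of Rad21 in the window. On the other side, chr8:127736136-127736374 lay 0.817 kb downstream over an exon of MYC, with a fold of 5.49 and no motif match. The nearest CTCF peak with Rad21 before the PVT1 start was chr8:127737713-127737963, 56.7 kb away and over an exon of MYC, with a fold of 5.15. Its plus-strand match did not pass the stricter limit that 1% of flanking windows pass. The nearest after the PVT1 start was chr8:127809445-127809940, 15.3 kb away, with a fold of 7.52 and no match. The remaining strong peak, chr8:128176475-128178051 near the end of PVT1, had a fold of 47.2 and no match, and lay on the distal site that led in both lines.

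**Figure D5:**
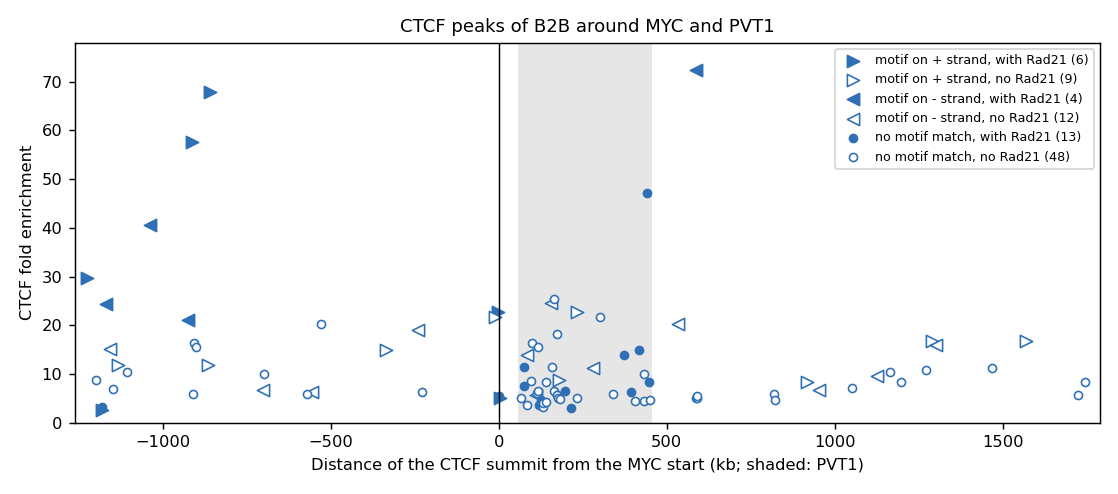
The 92 CTCF peaks of B2B by distance of the summit from the MYC start in kb and by fold enrichment; filled symbols overlap Rad21, triangles point in the direction of the matched motif, circles have no match, and the shaded band is PVT1. Filled triangles with a fold above 50 stand upstream pointing right and downstream pointing left. All 11 filled symbols inside PVT1 are circles, and 9 of them overlap H3K27ac of B2B.

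Across the 38 genes that start in the window, H3K4me3 promoter peaks were called at 7 in each line. The share over all annotated genes is not given. H3K4me3 marked LRATD2, PCAT1, CASC11, MYC, PVT1 and MIR1204 in both lines, CASC19 in A549 only and ENSG00000286034 in B2B only. LRATD2, the protein-coding gene furthest upstream, shares its promoter with PCAT1 and had H3K27ac of fold 29.6 in A549 and 6.44 in B2B. Those folds carry the local background of each line and cannot be set against each other. CASC11 runs in the opposite direction to MYC and shares the peaks of its promoter. CASC19 had pol II of fold 42.9, Med1 of 12.7 and all 3 Jun-family proteins at its starts in A549, and of the 7 targets only Jun in B2B. POU5F1B, the protein-coding gene between CASC19 and MYC, had no promoter peak in any of the 16 lists, and CCAT2 had only CTCF.

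The MYC network, the 13 genes for MYC-family proteins, their partner MAX, their antagonists of the MXD, MNT and MGA kind and the related MLX proteins, was read at its promoters. H3K27ac was called at 9 of 13 in A549 (71.6% of protein-coding genes) and 11 of 13 in B2B (62.8%). JunB was called at 4 of 13 in A549, namely MYC, MXD1, MXI1 and MNT (27.5%), and at 0 in B2B (3.29%). Jun was called at 7 in A549 (32.8%), with MXD3, MGA and MLXIP beside those 4, and at MYC, MXD1, MXI1 and MLXIP in B2B (17.9%). JunD was called at 6 in A549 (15.9%) and at 0 in B2B (1.96%). CTCF was called at 8 of 13 (39.1%) and Rad21 at 12 of 13 (64.8%) in B2B.

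The highest Jun-family peaks of the network were not at MYC. MXD1, an antagonist that competes with MYC for MAX, had Jun of fold 40.6 and rank 95.9% in A549 and of fold 4.53 and rank 5.75% in B2B. MNT, another antagonist, had Jun of fold 29.4, JunB of 11.5 and JunD of 8.11 in A549 and no called peak of them in B2B. These folds and ranks carry the local background of each line. No reads over the lowest background are given for MXD1 and MNT, so their size in the lines cannot be compared. At MYC itself the highest were Jun of fold 8.67, JunB of 6.47 and JunD of 5.59, all in A549.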

How the data were processed

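ChIP-seq peak lists of A549 and B2B cells were analysed, 16 in all, from 36 samples in 18 groups of 2 replicates; the 4 input samples have no list here. Per the methods of the study and the submitters' processing notes, the authors aligned reads to hg38 with Bowtie2 2.4.4, removed duplicates, merged replicates, scaled them with SAMtools 1.13 and called peaks with MACS2 2.2.7.1. The options of the caller and its control are not given in the sources used here, and the number of reads per list is unknown. The deposited fold enrichment is the ratio of summit pileup to local background, and the authors deposited its significance as −log10 of p and q. The lists end at different places, so chromosomes 1 to 12 gave the background.

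Peaks were assigned by summit and compared with a minimum overlap of 1 bp in Python 3.11.15 with pandas 2.3.3 and NumPy 2.4.6; starts came from GENCODE release 44. Shares have Wilson 95% intervals and ratios of counts exact conditional ones (SciPy 1.17.1). Pileup and background were solved from fold and p; in each list at least 93.2% of pileups came out whole to within 0.05 reads. The median pileup at a summit in the window was 20 to 83 reads. Sequence was read with pysam 0.24.0 and samtools 1.23.1, and none of it is shown, since the window lies on a chromosome whose sequence is not reported here. Interval, background and motif functions were checked on simulated data, against bedtools 2.31.1 for the intervals.

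Named are the genes that start in the window, the MYC network, the 6 leading distal sites of a line by number of lists and mean rank, the highest peak of each Jun-family list, the 3 largest clusters of a line, the 8 highest CTCF peaks with Rad21 and those nearest each start. The reads measure at the starts, the 2 further upstream Jun sites, the 2 regions at internal PVT1 starts and the divisions of CTCF peaks were chosen after their values were seen. The members and lists were chosen with earlier results of these data known. Alternatives were a −log10 q of at least 5, lists of equal length, covered bases, other overlaps, other distances, other starts and other motif limits.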

Additional observations from a re-analysis of the deposited data

How the results depend on the processing

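Of 152 values recomputed for 57 results, 127 stayed within their counting interval or within 1.5 times the count, 23 moved and 2 reversed; the causes were not tested except where the setting itself shortens a list or narrows a match. All 47 values at a −log10 q of at least 5 stayed. With lists of equal length, the A549 to B2B ratio reversed to 0.878 for pol II and 1.07 for Jun and moved to 1.5 for H3K4me3 and 1.42 for JunB. Under that setting, sites in both lines came to 32.7% for pol II and 31.4% for JunB, and sites in A549 only to 34.6% for pol II, 57.1% for H3K4me3, 45.7% for JunB and 37.0% for Jun. With 50% reciprocal overlap, sites in both lines came to 6.4% for pol II, 9.09% for H3K4me3, 25.7% for H3K27ac and 10.3% for Med1, CTCF with Rad21 to 13.04% and Rad21 with CTCF to 34.3%. With summits within 100 bp, they came to 28.6% for H3K27ac and 16.2% for Med1, and Rad21 with CTCF to 45.7%. At 3 kb from a start the largest H3K27ac clusters covered 6557 bp in A549 and 3318 bp in B2B, and with joining within 5 kb that of B2B covered 3744 bp. At a motif limit passed by 1% of flanking windows, 18 CTCF peaks matched, 9 on each strand. No paired analysis was possible because the replicates were merged before peaks were called. Without replicates or read totals, a peak missing from a list may lie below its threshold, and folds depend on a local background that differed between the lines.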
